A study of Mus musculus with 9 samples.

Results

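The synthesis of sterols and fatty acids was followed through 31 genes in cardiomyocytes of newborn mice whose mothers had been fed one of 3 diets during pregnancy. The genes were picked by a list of names and a minimum mean level, given below, with earlier results of these data known. They comprised 5 genes that control the transcription factor SREBP and 6 enzymes of the mevalonate segment. Another 11 enzymes lead from farnesyl diphosphate through squalene to cholesterol. The rest were the sterol carrier gene Stard4 and 8 genes that make, lengthen or desaturate fatty acids. All 31 were among the 18738 genes measured, and all 31 reached a mean of 1 TPM, a level scaled for transcript length and library total, over the 9 libraries, so that all entered the test of 13655 genes. From fertilization until birth, dams of the ND group ate a normal diet, those of the sHFD group a slight high fat diet and those of the HFD group a high fat diet, and heart muscle cells were taken from the pups at P0. Every library came from wild-type C57BL/6J mice, each diet had 3 libraries, and no group carried an engineered allele or a drug. The fat content of the diets, and whether the libraries of a diet came from separate litters, separate pups or pooled hearts, were not given in the sources used here. The p-values therefore measure only the spread between these libraries, which may be technical.

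Cells make cholesterol from acetyl-CoA through mevalonate, isoprenoid diphosphates, squalene and lanosterol, and they make palmitate from the same acetyl-CoA, which they then elongate and desaturate. Both pathways are switched on by SREBP proteins, which Scap carries from the endoplasmic reticulum to the Golgi for cleavage when membrane sterols are low, while Insig proteins hold Scap back when sterols are plentiful. Srebf2 encodes the form that mainly drives sterol enzymes, Srebf1 the forms that mainly drive fatty acid enzymes, and on many of these promoters SREBP works beside NF-Y, a factor that binds CCAAT boxes.

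The libraries were first examined for features that could move with these genes. All 12 cardiomyocyte markers were above 0 in all 9 libraries. They summed to 25404, 43967 and 30826 TPM in ND replicates 1, 2 and 3, to 43952 to 59444 in sHFD and to 30703 to 38534 in HFD. By this sum sHFD lay above HFD without overlap, and ND replicate 1 was the lowest and ND replicate 2 the highest of their diet. Singly, only Pln, Myl2, Myl3 and Mybpc3 had every HFD library below every sHFD library. Myh7 went the other way, at 948 to 1214 TPM in HFD and 118 to 258 in sHFD, and the rest overlapped. Markers of endothelium (8 of 8 above 0 throughout, 3284 to 4970 TPM in ND, 3295 to 3665 in sHFD and 3621 to 4096 in HFD) and fibroblasts (8 of 8, 9097 to 11247, 7392 to 9724 and 8855 to 9928) were also present, so that the RNA was not from cardiomyocytes alone, and fewer cells of a type cannot be told apart from less RNA per cell. The summed TPM of 10 immediate-early and heat-shock genes, all above 0 in every library, was 8779, 1660 and 4361 in ND replicates 1, 2 and 3. It ranged from 1589 to 1795 in the sHFD libraries and from 6111 to 10029 in the HFD libraries, so that sHFD and HFD did not overlap and ND replicate 1 lay within the HFD range. The 10 macrophage and leukocyte markers (10 of 10 above 0 throughout) summed to 462 to 649 TPM in ND, 353 to 450 in sHFD and 259 to 299 in HFD. The 6 red cell markers (6 of 6) summed to 5005 to 12252, 5910 to 8304 and 2638 to 4836, and the 7 pericyte and smooth muscle markers (7 of 7) to 1249 to 1436, 1576 to 2367 and 1314 to 1568. Of 7 adipocyte markers 5 had a mean under 1 TPM, among them Adipoq, Plin1 and Lep, and Fabp4, which endothelial cells also express, made up nearly all of that list's sum. Of 5 hepatocyte markers 3 had a mean under 1 TPM (Apoa1, Serpina1a and Afp), but Ahsg, which encodes a plasma protein, averaged 57.8 TPM. That list summed to 38.9 to 81.0 TPM in ND, 27.3 to 56.8 in sHFD and 75.8 to 79.4 in HFD, so that HFD lay above sHFD without overlap.

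Promoters are shown for some of the genes on which the results below turn. Mvk and Nsdhl were lower under HFD, and Hmgcs1 is the entry enzyme of the mevalonate segment. Insig1 was higher under HFD than under sHFD, and Fads2, a fatty acid desaturase gene, was lower under HFD. Each promoter runs 5′ to 3′ on the gene's own strand, from 250 bases before to 50 bases after a transcription start of RefSeq on GRCm38.p6. Capitals mark CCAAT boxes, written CCAAT or, on the other strand, ATTGG, and the sterol response element TCACNCCAC. The Mvk promoter (plus strand of chromosome 5) is chr5:114444019-114444318, that of Nsdhl (plus strand) chrX:72918271-72918570, that of Hmgcs1 (plus strand) chr13:119690101-119690400, that of Insig1 (plus strand) chr5:28071162-28071461 and that of Fads2 (minus strand) chr19:10101454-10101753.
Mvk: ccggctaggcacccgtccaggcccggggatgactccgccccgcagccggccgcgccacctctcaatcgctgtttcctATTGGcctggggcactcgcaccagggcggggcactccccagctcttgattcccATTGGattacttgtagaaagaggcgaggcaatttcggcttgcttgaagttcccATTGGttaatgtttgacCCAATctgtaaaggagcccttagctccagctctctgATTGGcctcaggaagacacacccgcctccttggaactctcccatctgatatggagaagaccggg
Nsdhl: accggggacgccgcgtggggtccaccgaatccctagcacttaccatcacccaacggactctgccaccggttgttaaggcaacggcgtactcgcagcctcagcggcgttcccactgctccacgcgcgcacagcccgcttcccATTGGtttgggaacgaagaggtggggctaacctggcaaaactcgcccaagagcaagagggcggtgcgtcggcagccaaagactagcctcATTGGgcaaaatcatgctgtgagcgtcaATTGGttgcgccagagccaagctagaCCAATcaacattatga
Hmgcs1: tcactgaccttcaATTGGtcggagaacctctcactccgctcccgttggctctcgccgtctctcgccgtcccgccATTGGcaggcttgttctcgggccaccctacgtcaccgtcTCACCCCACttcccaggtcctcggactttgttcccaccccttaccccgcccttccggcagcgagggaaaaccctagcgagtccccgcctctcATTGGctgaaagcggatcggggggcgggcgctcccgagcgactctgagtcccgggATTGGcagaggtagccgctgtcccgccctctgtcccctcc
Insig1: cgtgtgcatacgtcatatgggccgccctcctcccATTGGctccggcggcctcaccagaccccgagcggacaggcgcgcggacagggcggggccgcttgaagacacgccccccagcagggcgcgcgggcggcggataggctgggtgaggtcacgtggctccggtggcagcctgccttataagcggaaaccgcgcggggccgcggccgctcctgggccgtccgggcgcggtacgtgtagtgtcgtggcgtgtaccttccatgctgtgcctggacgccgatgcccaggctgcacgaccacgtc
Fads2: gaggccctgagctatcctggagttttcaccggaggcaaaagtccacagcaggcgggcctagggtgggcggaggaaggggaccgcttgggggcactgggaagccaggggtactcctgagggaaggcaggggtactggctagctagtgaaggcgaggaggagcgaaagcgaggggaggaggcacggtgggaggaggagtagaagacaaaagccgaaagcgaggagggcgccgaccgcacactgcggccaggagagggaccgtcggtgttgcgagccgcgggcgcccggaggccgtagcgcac

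The Mvk window held 5 CCAAT boxes, those of Nsdhl and Hmgcs1 4 each, that of Insig1 1 and that of Fads2 none. Dhcr7 and Insig2, also lower under HFD but not shown, had 3 entries each. These held 0, 0 and 2 boxes for Dhcr7 and 3, 0 and 0 for Insig2. RefSeq promoters were matched for 24 of the 31 genes, with 32 entries because 5 genes had more than 1 start. With both strands searched, CCAAT occurred in 14 of the 17 entries for sterol enzymes, in 3 of 5 for fatty acid genes and in 5 of 10 for the SREBP control genes, beside 37.4% of all 32851 promoters of this length. At least 2 copies occurred in 9 of the 17 sterol enzyme entries, beside 11.7% of all promoters. The letters TCACNCCAC were found in 1 of the 32 entries, that of Hmgcs1, and in 1.24% of all promoters. The Hmgcs1 match began at position -137 from the start and overlapped no CCAAT box. The GC box GGGCGG was in 24 of the 32 entries, in 35.7% of all promoters and in 60.6% of the promoters of genes tested, where the shares were 37.6% for CCAAT, 13.7% for at least 2 copies of it and 1.12% for TCACNCCAC. A match describes these letters and is not evidence of binding, and no match says only that they are not in this window.

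The 17 sterol enzymes stood lowest under HFD. Their TPM summed to 213, 399 and 301 in ND replicates 1, 2 and 3, to 347, 401 and 368 under sHFD, and to 208, 223 and 205 under HFD. The HFD libraries lay close together and below every sHFD library, whereas the ND libraries ran from the HFD level to the sHFD level. The mean was 304 ± 93.0 (SD, n = 3) for ND, 372 ± 27.3 for sHFD and 212 ± 9.82 for HFD. The 8 fatty acid genes showed no such order in their sum, which was 544 ± 48.8 TPM (SD, n = 3) for ND, 540 ± 58.1 for sHFD and 544 ± 58.0 for HFD, with all 3 diets overlapping. Its largest parts were Scd2, Elovl5 and Acly, with means of 195, 118 and 84.2 TPM over the 9 libraries. Differences in the less abundant fatty acid genes therefore weigh little in it. ND replicate 1 was the lowest ND library for 16 of the 17 sterol enzymes, by a median of -0.61 on the log2(TPM + 1) scale against the other ND libraries, while it was the lowest for 3 of the 8 fatty acid genes and below both other ND libraries for 42.3% of all genes tested. The same library had the highest immediate-early and heat-shock sum of its diet, and ND replicate 2, with the lowest such sum, had the highest sterol enzyme sum. As a sum, though not marker by marker, the cardiomyocyte markers had the same order as the sterol enzymes within ND and the same separation of sHFD from HFD. The part of either list in the sterol result was not tested.

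**Figure D1:**
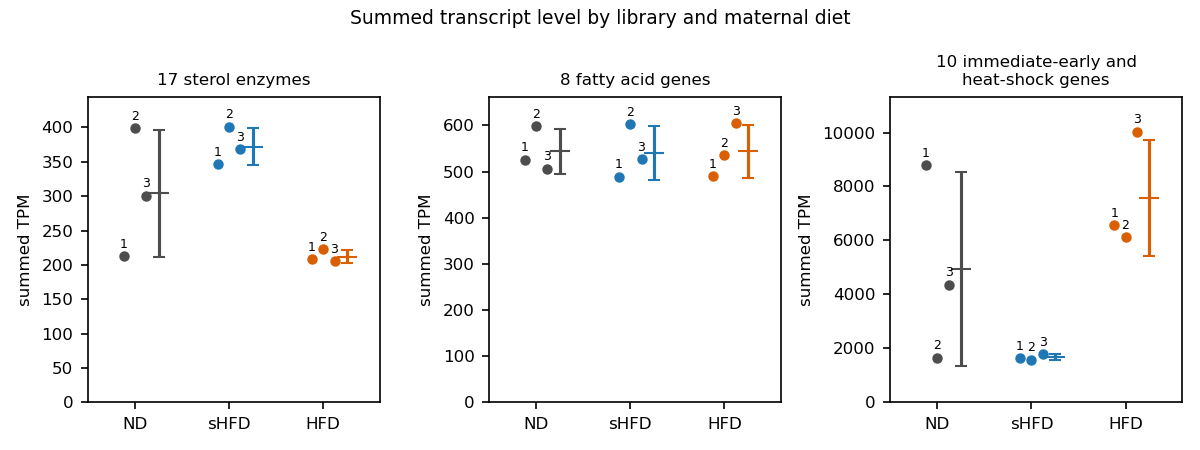
Summed TPM (vertical axes, from 0) by maternal diet for the 17 sterol enzymes, the 8 fatty acid genes and 10 immediate-early and heat-shock genes; each point is a library with its replicate number, and bars are mean ± SD of 3. The sterol sum was 205 to 223 in all HFD libraries and 347 to 401 in all sHFD libraries, with ND spread between, whereas the fatty acid sums overlapped.

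The largest set of differences was that between HFD and sHFD. On log2(TPM + 1), limma with Benjamini-Hochberg adjustment over all genes placed 15 of the 31 genes lower under HFD than under sHFD and 1 higher at an adjusted p under 0.05, beside 23.9% of all genes tested that were lower and 10.3% that were higher. In the sterol arm 11 of 17 enzymes fell, with a median log2 difference of -0.73, beside -0.16 for all genes tested, and in the fatty acid arm 2 of 8 fell, with a median of -0.19. HFD lay below sHFD in every library for 14 of the 17 sterol enzymes and 3 of the 8 fatty acid genes, beside 34.7% of all genes tested. No test compared the lists with one another or with the other genes. As sums, the cardiomyocyte, macrophage, red cell, pericyte and hepatocyte markers and the immediate-early and heat-shock genes separated the same diets without overlap. Single markers did not all do so. The pericyte sums came as near as 1568 TPM in HFD and 1576 in sHFD, and Ahsg made up most of the hepatocyte sum. Against ND, 5 of the 31 genes fell under HFD, 3 of them sterol enzymes, and none rose, beside 9.59% lower and 1.28% higher among all genes. The members' median log2 difference was -0.34 and that of all genes -0.14. At an unadjusted p under 0.05 the count was 11 of 31, beside 29.8% of all genes. Between sHFD and ND no member passed and none reached an unadjusted p under 0.05, beside 0.00732% of all genes called lower, 0% called higher and 7.36% at the unadjusted level. The members' median log2 difference there was 0.23, with 25 of 31 above 0. For all genes tested the median was 0.0010, with 49.8% below 0. HFD is compared with ND and with sHFD through the same HFD libraries, so both comparisons share samples and their values stand side by side below.

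**Figure D2:**
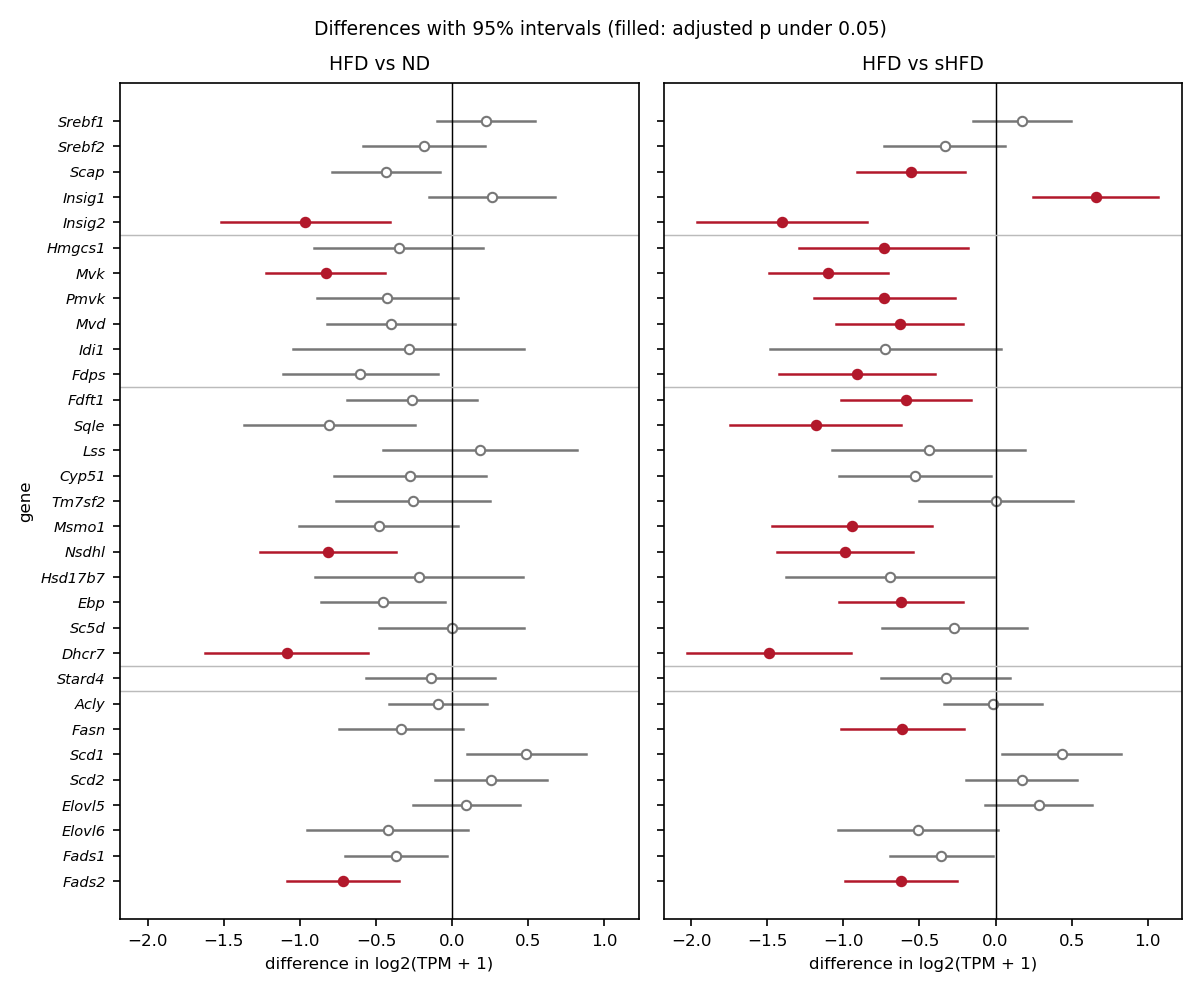
Difference in log2(TPM + 1) (horizontal axes) for each of the 31 genes, HFD minus ND at left and HFD minus sHFD at right, with 95% intervals from the fit; filled points passed an adjusted p of 0.05, and lines part the 5 groups of genes. The sterol enzymes from Hmgcs1 to Dhcr7 lie to the left of 0 in HFD vs sHFD on the deposited scale except Tm7sf2 (and Sc5d after quantile scaling), and the fatty acid genes lie on both sides.

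The mevalonate segment turns acetyl-CoA units into farnesyl diphosphate, and 5 of its 6 genes were lower under HFD than under sHFD. Hmgcs1, which makes HMG-CoA, was at 38.5, 92.1 and 54.7 TPM in ND, 62.7, 93.0 and 75.1 in sHFD and 40.2, 48.2 and 47.7 in HFD. Its HFD values lay below all sHFD values and within the ND range (HFD minus sHFD log2 -0.74, SE 0.26, adjusted p = 0.0423, HFD minus ND -0.35, adjusted p = 0.382). Mvk, mevalonate kinase, was at 13.8, 16.2 and 19.0 TPM in ND, 21.4, 17.9 and 19.8 in sHFD and 8.45, 8.95 and 8.56 in HFD. All 3 HFD libraries were below every library of the other diets, and Mvk was the only gene of the segment that also fell against ND (log2 -0.83, SE 0.18, adjusted p = 0.0171, and -1.10 against sHFD, adjusted p = 0.00169). Its promoter was the one with 5 CCAAT boxes. That of Hmgcs1, which did not pass against ND, held 4, and that of Hsd17b7, which passed in no comparison, held 3. No link between these boxes and the levels was tested. Pmvk, the next kinase, read 19.0, 33.5 and 35.4 TPM in ND, 35.8, 33.6 and 36.2 in sHFD and 22.1, 18.9 and 21.6 in HFD. Mvd, the decarboxylase that follows, read 8.42, 10.6 and 11.00, then 12.3, 11.2 and 11.9, then 8.84, 6.36 and 6.82 TPM in the same order of diets. For both genes ND replicate 1 was the lowest ND library and fell within the HFD range, and the other ND libraries did not overlap HFD. Their differences from sHFD were -0.73 (adjusted p = 0.0203) and -0.63 (adjusted p = 0.0249).

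Fdps, which joins isoprenoid units into farnesyl diphosphate, was at 19.9, 36.9 and 35.3 TPM in ND, 37.5, 36.8 and 36.4 in sHFD and 20.5, 23.7 and 14.5 in HFD. The sHFD libraries differed by about 1 TPM while HFD stood well below them, a log2 difference of -0.91 (SE 0.24, adjusted p = 0.0119). Reads of Fdps could be shared with copies, since GENCODE lists 5 processed pseudogenes that match it over 300 bases or more at 90% identity or above, and a protein-coding gene, Gm43738, that is identical to it over 929 bases and shares up to 197 bases of an exon on the same strand. Idi1, the isomerase upstream of Fdps, did not pass. Its mean was 8.30 ± 6.03 TPM in ND (SD, n = 3), 10.1 ± 1.58 in sHFD and 5.77 ± 1.43 in HFD, its ND libraries ran from 3.80 to 15.2, and 3 processed pseudogenes match it in the same way.

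From squalene to cholesterol, 6 of 11 enzymes fell between sHFD and HFD. Fdft1, squalene synthase, was at 13.5, 22.8 and 15.9 TPM in ND, 23.0, 20.4 and 21.3 in sHFD and 14.1, 13.6 and 14.3 in HFD. Its HFD libraries were tightly grouped below sHFD (log2 -0.59, SE 0.20, adjusted p = 0.0354). An exon of Fdft1 overlaps one of Ctsb on the opposite strand by 774 bases, and Ctsb, a lysosomal protease gene, averaged 482 TPM against 17.6 for Fdft1. Whether the counting used strand was not given in the sources used here, so the Fdft1 values are uncertain. Sqle, squalene epoxidase, read 9.28, 16.3 and 12.1 TPM in ND, 14.2, 18.3 and 16.4 in sHFD and 6.48, 9.58 and 4.52 in HFD, a difference of -1.18 from sHFD (SE 0.26, adjusted p = 0.00537). Against ND it was -0.81 with an adjusted p of 0.0616. Its HFD and sHFD values were far apart, and ND replicate 1 fell inside the HFD range.

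Msmo1 and Nsdhl act in the removal of the methyl groups at carbon 4 of the sterol ring. Msmo1 read 9.15, 18.6 and 14.0 TPM in ND, 16.4, 21.0 and 19.4 in sHFD and 9.52, 11.2 and 7.59 in HFD, and fell by 0.94 on the log2 scale between sHFD and HFD (SE 0.24, adjusted p = 0.0111). Nsdhl read 10.5, 17.3 and 13.7 TPM in ND, 13.9, 16.4 and 16.1 in sHFD and 8.14, 7.40 and 6.36 in HFD. Its HFD libraries were below all 6 others, and it fell against both diets, by 0.82 from ND (SE 0.21, adjusted p = 0.0282) and by 0.99 from sHFD (adjusted p = 0.00427). Ebp, the sterol isomerase, read 16.9, 17.1 and 20.6 TPM in ND, 23.3, 16.6 and 22.2 in sHFD and 11.5, 13.1 and 14.5 in HFD. Here too HFD lay below every other library, with a difference of -0.62 from sHFD (adjusted p = 0.0241) and of -0.45 from ND that did not pass (adjusted p = 0.130).

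Dhcr7, the reductase that yields cholesterol in the last step of one branch, had the largest difference of the 31 genes in both HFD comparisons. It was at 10.8, 22.8 and 14.6 TPM in ND, 19.8, 25.5 and 17.3 in sHFD and 6.79, 6.09 and 7.29 in HFD. No HFD library reached the lowest library of another diet, and the log2 difference was -1.09 from ND (SE 0.25, 95% interval -1.62 to -0.55, adjusted p = 0.0202) and -1.49 from sHFD (SE 0.25, -2.02 to -0.95, adjusted p = 0.00180). The gene spans chr7:143823167-143848410 and has 3 RefSeq starts, of which the last holds 2 CCAAT boxes and the others none, and the values do not tell transcripts apart.

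The other 5 enzymes of this segment did not pass in any of the 3 comparisons. Hsd17b7, the ketosterol reductase of the same demethylation complex, averaged 19.0 ± 11.4 TPM in ND (SD, n = 3), 24.7 ± 6.43 in sHFD and 14.7 ± 1.93 in HFD. Cyp51, the lanosterol demethylase, averaged 13.6 ± 3.61, 16.2 ± 2.67 and 10.96 ± 2.33 TPM, and shares 166 exonic bases with Akap9 on the opposite strand. For both genes sHFD had the highest mean, and HFD lay below every sHFD library for Hsd17b7 and overlapped sHFD for Cyp51. Lss, lanosterol synthase, averaged 3.91 ± 2.49 TPM in ND, where replicate 2 stood at 6.72 and the others at 1.97 and 3.05, 6.01 ± 0.787 in sHFD and 4.16 ± 0.499 in HFD. Sc5d, the desaturase, averaged 12.2 ± 3.59, 14.7 ± 2.69 and 11.9 ± 0.879 TPM, and its difference between HFD and ND was -0.0030 with a 95% interval of -0.48 to 0.47. Tm7sf2, a sterol reductase, averaged 6.95 ± 0.564, 5.82 ± 1.96 and 5.66 ± 0.656 TPM and was the only sterol enzyme whose HFD minus sHFD difference was not below 0 in the deposited scale (0.0046, interval -0.50 to 0.51), joined by Sc5d after quantile scaling. Stard4, which carries sterol between membranes, averaged 20.8 ± 2.76, 24.1 ± 5.69 and 18.7 ± 1.98 TPM and did not pass either.

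**Figure D3:**
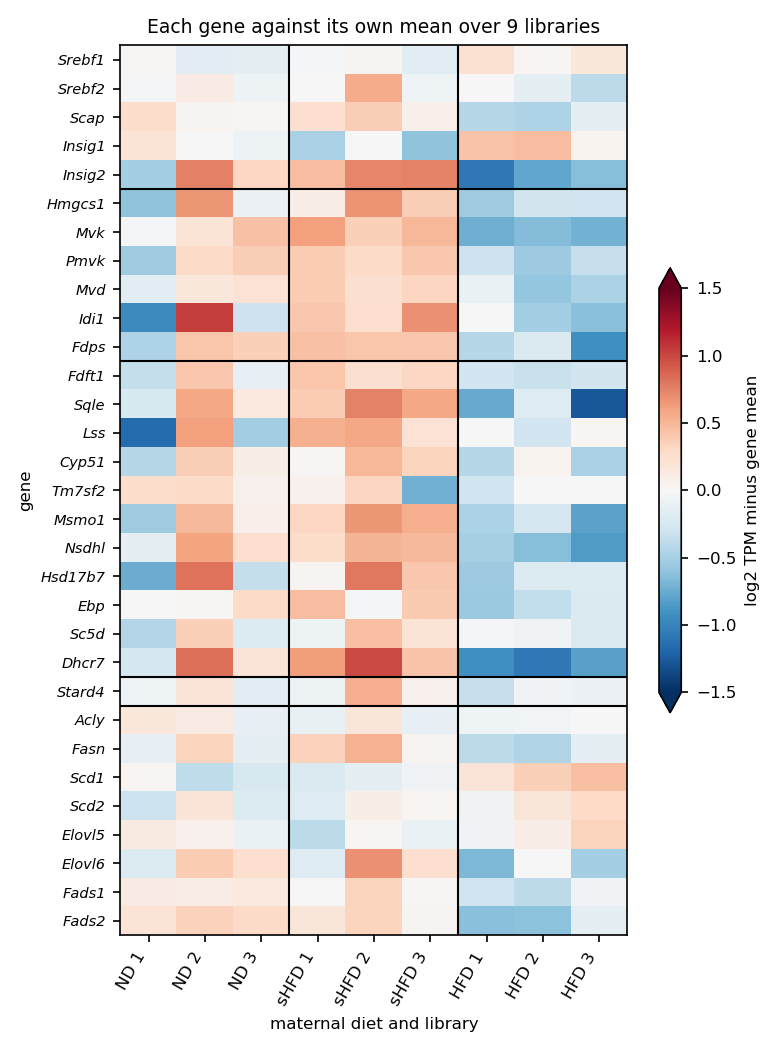
Log2 TPM of each of the 31 genes (rows, grouped by role) in each of 9 libraries (columns), minus the gene's own mean over the libraries; red is above and blue below that mean. In the sterol rows from Hmgcs1 to Dhcr7 the HFD columns and ND 1 are mostly blue and the sHFD columns and ND 2 mostly red, while the fatty acid rows at the bottom show no common pattern.

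Among the genes that control SREBP, the 2 Insig genes differed in opposite directions between HFD and sHFD. Insig2, at chr1:121304353-121332662, was at 16.0, 38.3 and 28.2 TPM in ND, 31.4, 37.7 and 38.0 in sHFD and 10.8, 13.2 and 14.6 in HFD. Every HFD library was below every other library, although ND replicate 1 came within 2 TPM of the highest, and Insig2 fell by 0.96 from ND (SE 0.26, adjusted p = 0.0341) and by 1.41 from sHFD (SE 0.26, adjusted p = 0.00251). Insig1, at chr5:28071412-28078662 and itself known as a gene that SREBP turns on, was at 38.8, 33.5 and 31.9 TPM in ND, 24.0, 33.6 and 22.0 in sHFD and 44.9, 46.3 and 34.9 in HFD. All HFD libraries were above all sHFD libraries, though by about 1 TPM at the nearest, and HFD overlapped ND. The log2 difference was 0.66 from sHFD (SE 0.19, adjusted p = 0.0197), 0.26 from ND (adjusted p = 0.378), and for sHFD minus ND -0.39 (adjusted p = 0.674). The ratio of Insig1 to Insig2 within a library, chosen after the values were seen, was 2.43, 0.876 and 1.13 in ND, 0.765, 0.891 and 0.580 in sHFD and 4.14, 3.51 and 2.39 in HFD. HFD lay above sHFD in all 3 libraries, with an exact two-sided permutation p of 0.10, the smallest that 3 against 3 allows. As the ratio was chosen on these same values, this p gives no support to the separation. For HFD against ND the permutation p was 0.20, and ND replicate 1 was just above the lowest HFD library.

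Scap read 41.3, 35.4 and 34.9 TPM in ND, 41.1, 44.4 and 36.2 in sHFD and 25.6, 25.02 and 31.5 in HFD. Here ND replicate 1 was the highest ND library, unlike in the sterol enzymes, and HFD was below all 6 others. The fall passed against sHFD (log2 -0.55, SE 0.16, adjusted p = 0.0211) and not against ND (-0.43, adjusted p = 0.0988). The factor genes did not pass in any comparison. Srebf2 was at 51.9, 57.1 and 49.6 TPM in ND, 52.4, 76.8 and 50.1 in sHFD and 52.5, 47.6 and 39.7 in HFD, with sHFD replicate 2 far above the rest. Srebf1 was at 38.7, 34.3 and 35.0 TPM in ND, 37.8, 39.5 and 34.1 in sHFD and 44.7, 39.1 and 42.5 in HFD, with all HFD libraries above ND, by under 1 TPM at the nearest, and overlapping sHFD (HFD minus ND 0.22, adjusted p = 0.340). The HFD minus sHFD difference was -0.33 for Srebf2 (95% interval -0.73 to 0.07) and 0.18 for Srebf1 (-0.15 to 0.50), and an mRNA level does not show how much of either protein is cleaved. Srebf1 shares 109 exonic bases with Rai1 on the opposite strand.

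**Figure D4:**
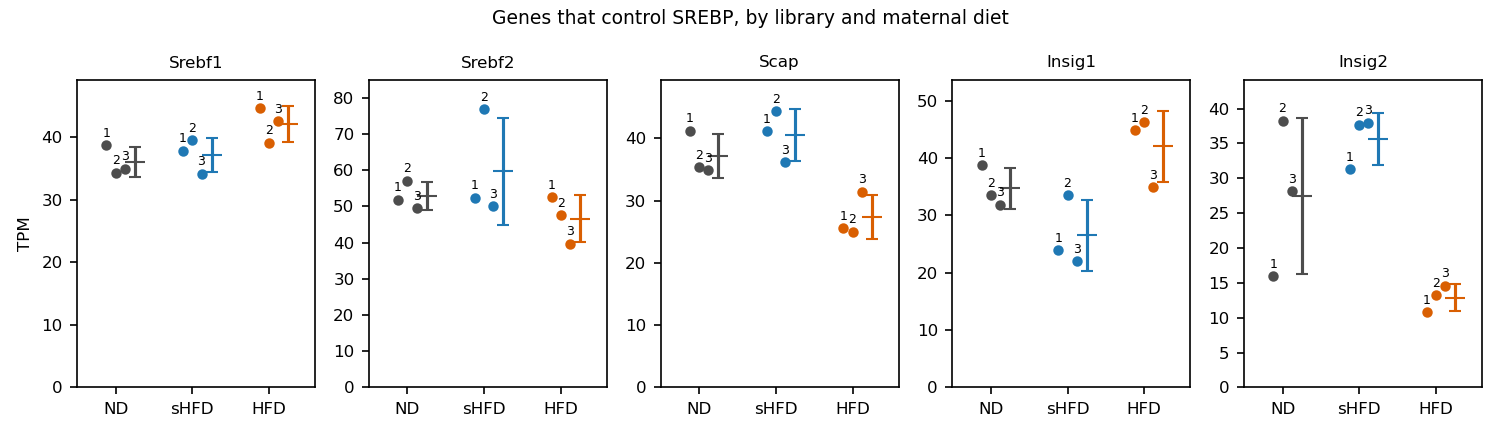
TPM (vertical axes, from 0) of Srebf1, Srebf2, Scap, Insig1 and Insig2 by maternal diet; points are libraries with their replicate numbers and bars are mean ± SD of 3. Insig2 was 10.8 to 14.6 in HFD and 31.4 to 38.0 in sHFD, Insig1 was higher in HFD than in sHFD, Srebf2 overlapped between all diets, and Srebf1 lay higher in HFD than in ND without overlap.

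The fatty acid genes were the more abundant arm. By mean over the 9 libraries, with TPM scaled for transcript length, Scd2 was highest of the 31 at 195 TPM, followed by Elovl5 at 118, Acly at 84.2 and the sterol gene Hmgcs1 at 61.3, and the lowest were Lss at 4.70 and Elovl6 at 4.28. Fasn and Fads2 each averaged 37.2 TPM, and many neighbours in this order differ by less than their spread over libraries. Acly, which makes cytosolic acetyl-CoA for both pathways, averaged 87.5 ± 8.99 TPM in ND (SD, n = 3), 83.2 ± 10.4 in sHFD and 81.9 ± 1.91 in HFD, a difference of -0.02 between HFD and sHFD with an interval of -0.34 to 0.31. Fasn, fatty acid synthase, was at 33.3, 45.7 and 32.7 TPM in ND, 46.2, 52.1 and 37.2 in sHFD and 27.7, 26.4 and 33.1 in HFD. Its HFD libraries were below all sHFD libraries and overlapped ND, and the fall from sHFD was -0.61 on the log2 scale (SE 0.19, adjusted p = 0.0246).

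The desaturases did not move together. Fads2, which encodes the delta-6 desaturase of polyunsaturated fatty acids, was at 41.6, 45.9 and 44.0 TPM in ND, 40.8, 45.4 and 37.0 in sHFD and 23.4, 23.6 and 32.6 in HFD. ND and sHFD overlapped and all HFD libraries were lower, by -0.72 from ND (SE 0.17, adjusted p = 0.0226) and by -0.62 from sHFD (adjusted p = 0.0150). ND replicate 1 lay with the other ND libraries and far above HFD, and the Fads2 promoter held neither CCAAT nor TCACNCCAC. Fads1, the delta-5 desaturase gene beside it on chromosome 19, averaged 60.2 ± 0.802, 59.95 ± 8.05 and 46.6 ± 5.81 TPM, and its differences of -0.37 from ND and -0.36 from sHFD did not pass (adjusted p = 0.132 and 0.0928). Scd1 and Scd2, which place the first double bond, had their highest means in HFD. Scd1 averaged 10.3 ± 1.52, 10.7 ± 0.615 and 14.8 ± 1.28 TPM, with every HFD library above the 6 others, and its difference from ND was 0.49 (95% interval 0.10 to 0.88, adjusted p = 0.0952) and from sHFD 0.43 (adjusted p = 0.0799). With median-ratio scaling Scd1 passed against ND (0.63, adjusted p = 0.0336) and against sHFD (0.59, adjusted p = 0.0160). Scd2 averaged 180 ± 35.0, 190 ± 19.1 and 214 ± 25.5 TPM, with the diets overlapping. Reads of these genes could be shared, since Scd1 matches Scd3 over 1053 bases at 91.4% identity. Scd2 matches an Scd1 transcript over 623 bases at 95.5%. The elongases stood apart from each other in level: Elovl5 averaged 120 ± 9.51, 105 ± 16.1 and 128 ± 17.6 TPM and Elovl6 4.62 ± 0.928, 5.04 ± 1.53 and 3.20 ± 0.828 TPM, and neither passed. With median-ratio scaling Elovl5 passed as higher in HFD than in sHFD (0.45, adjusted p = 0.0192).

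Genes around these pathways were taken from 4 further lists. Of 15 genes for SREBP processing and its cofactors, 1 fell and none rose between ND and HFD, and 4 fell and 2 rose between sHFD and HFD. The shares of all genes tested, against which these and the next counts are to be read, were 9.59% lower and 1.28% higher for the first comparison and 23.9% and 10.3% for the second. The one lower in both was Nfya, the subunit of NF-Y that recognises CCAAT, at 21.2, 37.3 and 28.3 TPM in ND, 31.9, 36.4 and 33.7 in sHFD and 13.5, 14.4 and 14.9 in HFD. Its HFD libraries were below all others, ND replicate 1 was the lowest ND library, and the log2 difference was -0.94 from ND (SE 0.20, adjusted p = 0.0151) and -1.19 from sHFD (adjusted p = 0.00178). The genes of the other NF-Y subunits, Nfyb and Nfyc, did not pass in any comparison. Their differences were 0.056 and -0.057 from ND and 0.16 and -0.28 from sHFD. Prkaa1, a catalytic subunit of AMP-activated kinase, fell by 1.38 from sHFD to HFD (adjusted p = 0.00415), from a mean of 21.3 TPM to 7.47. Prkaa2, the gene of the other catalytic subunit, had its highest mean in HFD and did not pass. It averaged 32.6 TPM in ND, 38.5 in sHFD and 48.9 in HFD. Pgrmc1, a haem-binding membrane protein gene, rose by 0.70 from sHFD to HFD (adjusted p = 0.00669). Of 10 tested genes for isoprenoid branches and other sterol steps, 1 fell between ND and HFD, and 4 fell and 2 rose between sHFD and HFD. Acat2, which makes the acetoacetyl-CoA that Hmgcs1 uses, went from 11.9 TPM in sHFD and 7.84 in ND to 3.56 in HFD (log2 -1.51, adjusted p = 0.00161, and -0.92, adjusted p = 0.0335), whereas Lbr, a sterol reductase that is also a lamin receptor, rose from 48.7 to 97.2 TPM between sHFD and HFD (0.98, adjusted p = 0.00411).

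Beside the same shares, of 14 tested genes that lengthen and desaturate fatty acids or supply their precursors, 4 fell and 1 rose between sHFD and HFD, and 1 fell between ND and HFD. Slc25a1, the mitochondrial citrate carrier, was at 25.9 TPM in ND, 26.1 in sHFD and 16.0 in HFD (log2 -0.66 from ND, adjusted p = 0.0265). Acacb, an acetyl-CoA carboxylase tied to mitochondria, fell from 55.3 TPM in sHFD to 18.3 in HFD (-1.54, adjusted p = 0.00314), and Elovl4 rose from 0.953 to 3.32 TPM (1.13, adjusted p = 0.00303). Of 15 genes for sterol efflux, uptake and storage, 2 rose and 1 fell between ND and HFD (1.28% and 9.59% of all genes), and 3 rose and 5 fell between sHFD and HFD (10.3% and 23.9%). Ch25h, which makes the regulatory oxysterol 25-hydroxycholesterol, read 4.90, 0.97 and 1.35 TPM in ND, 0.72, 1.79 and 0.84 in sHFD and 7.98, 6.24 and 5.24 in HFD. Every HFD library was above all others and ND replicate 1 was nearest to them (log2 1.298 from ND, adjusted p = 0.0371, and 1.84 from sHFD, adjusted p = 0.00312). Mylip, a ubiquitin ligase for lipoprotein receptors, rose from 46.0 TPM in ND and 32.0 in sHFD to 81.4 in HFD (0.85, adjusted p = 0.0474, and 1.29, adjusted p = 0.00318), and Nr1h3, which encodes the oxysterol receptor LXR alpha, fell from 4.09 and 3.41 to 1.80 TPM (-0.85, adjusted p = 0.0431, and -0.67, adjusted p = 0.0488).

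The calls rested on few libraries. Between HFD and ND, 10 of the 31 genes passed without ND replicate 1, with Fdps, Sqle, Msmo1 and Pmvk added as lower and Scd1 as higher. Mvk alone passed without ND replicate 2, and none passed without ND replicate 3, HFD replicate 1 or HFD replicate 2, when the calls over all genes went from 1484 to 39, 127 and 32. All 5 calls also ended when only the ND and HFD libraries entered the fit. Between HFD and sHFD, 16 members passed with all libraries, and omitting sHFD replicate 1 left 9, omitting sHFD replicate 3 left 10, omitting HFD replicate 1 left 9 and omitting HFD replicate 2 left 7. Insig2, Mvk, Fdps, Sqle, Msmo1, Nsdhl and Dhcr7 passed in each of those 4 fits, in the 5 that left out another library and in all 8 other settings tried, whereas the rise of Insig1 was lost in each of those 4 (adjusted p up to 0.0880). The call of Fdft1 ended on omitting any 1 of the 6 sHFD and HFD libraries, and that of Hmgcs1 on omitting any of them but sHFD replicate 1, or ND replicate 3. Fasn and Scap lost theirs without sHFD replicate 1, sHFD replicate 2, HFD replicate 1 or HFD replicate 2, and Fads2 without any of the last 3 of these. Omitting sHFD replicate 1, sHFD replicate 3 or HFD replicate 2 ended the calls of Ebp, Mvd and Pmvk, as did HFD replicate 1 for Ebp and HFD replicate 3 for Mvd. Among the genes outside the 31, the HFD minus ND calls of Nfya, Slc25a1, Acat2, Ch25h, Mylip and Nr1h3 all ended without ND replicate 3, HFD replicate 1 or HFD replicate 2 (adjusted p up to 0.0773 for Nfya and 0.176 for Nr1h3), while the HFD minus sHFD calls of all of these but Nr1h3 held without any 1 library. Most genes lay below 0 in HFD, and rescaling libraries moved that centre: of the calls between HFD and ND 88.2% were lower as deposited and 59.9% after median-ratio or quantile scaling, and between HFD and sHFD 69.9%, 50.2% and 50.1%. Of the 17 sterol enzymes 16 lay below 0 in HFD minus sHFD as deposited, 16 after median-ratio scaling and 15 after quantile scaling. Their medians were -0.73, -0.57 and -0.46, and against ND 16, 15 and 13 lay below 0. Over all genes tested the HFD minus sHFD medians were -0.16, -0.0091 and -0.017 in the same order. As deposited, 60.7% of all genes lay below 0 against sHFD and 63.5% against ND. The HFD minus sHFD calls of Ebp, Fdft1, Mvd and Pmvk were lost under both scalings and that of Hmgcs1 under median-ratio scaling. Scd1 and, with median-ratio scaling, Elovl5 were added as higher, so that 3 members were higher and 10 lower with median-ratio scaling and 2 and 11 with quantile scaling. With no filter on low genes the calls of Fdft1 and Hmgcs1 ended, and with no variance trend that of Hmgcs1. Between HFD and ND, quantile scaling kept Dhcr7 and Fads2, ended the calls of Mvk, Nsdhl and Insig2 and added Scd1 as higher, and with no filter Nsdhl and Insig2 were lost. Outside the 31, the HFD minus ND calls of Acat2, Slc25a1 and Nr1h3 were lost under both scalings and that of Mylip under quantile scaling, those of Acat2, Nr1h3, Mylip and Ch25h with no filter, and that of Mylip with no variance trend. Between HFD and sHFD, Nr1h3 was lost under both scalings and with no filter, and Slc25a1 under quantile scaling. All 6 of these HFD minus ND calls ended when only those 2 diets entered the fit.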

How the data were processed

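mRNA was sequenced from cardiomyocytes of 9 libraries. The authors deposited 1 table of TPM values for 18738 genes, all typed as mRNA. Per the submitters' processing notes, RSEM 1.3.1 and GRCm38 were used, and aligner, annotation and strand setting were not given in the sources used here. TPM sums to 1000000 in every library and keeps no depth, so depth is unknown and no counting interval is given. No column was left unmapped (0), and no libraries were identical. Values were taken as log2(TPM + 1), genes under a mean of 1 TPM over 9 libraries were left out, and limma 3.58.1 (R 4.3.3) fitted diet in all 9 libraries with a mean-variance trend and Benjamini-Hochberg adjustment over 13655 genes, which was tested on simulated data. Fold changes on this scale understate those of low genes. Members, lists and tests were chosen with earlier results of these data known. Values in every library are given for genes that passed in any comparison and for the SREBP control genes, other members are given as means or ranges, and of other lists the 3 genes with the smallest p between HFD and sHFD, and any that passed between HFD and ND, could be named. Nfyb, Nfyc and Prkaa2 were added beside Nfya and Prkaa1 because they encode related subunits. Alternatives were another pseudocount, other filters, 2 scalings, a replicate block, 2 diets at a time, no trend and leaving out each library. Overlaps and copies came from GENCODE M21 with BLAST, and promoters and positions from RefSeq GRCm38.p6.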

Additional observations from a re-analysis of the deposited data

How the results depend on the processing

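With 3 libraries per diet, counts of calls moved with single libraries. Over all genes 1484 passed between HFD and ND, 763 with no filter and 420 with only the 2 diets compared, and leaving out a library gave 32 to 3842. Between HFD and ND, 5 members passed with a pseudocount of 0.1, a filter at 5 TPM or no variance trend, 6 with median-ratio scaling, 3 with no filter (Nsdhl and Insig2 lost), 3 with quantile scaling (Dhcr7 and Fads2 kept, Scd1 added) and 0 with only the 2 diets compared. Leaving out a library gave 0 to 10. Between HFD and sHFD the 8 other settings gave 13 to 19, and leaving out a library gave 7 to 18. Between sHFD and ND no setting gave a call, and leaving out a library gave 0 to 1 (Lss higher, 1.01, without ND replicate 2). The cause of these changes was not tested, and fits that leave out libraries also rest on a smaller number of them. With a replicate block 6 members passed between HFD and ND (Sqle added), 18 between HFD and sHFD (Cyp51 and Hsd17b7 added) and 0 between sHFD and ND. Whether equal replicate numbers mark paired libraries was not given in the sources used here, and the correlations do not settle it. Of 9 same-numbered pairs 4 correlated above 0.1 (-0.287 to 0.413, against -0.352 to 0.347 for other pairs). Of the 9 libraries 4 correlated best with their own number.

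No member that passed changed sign under any setting. Some differences that had not passed did. In HFD minus ND, median-ratio scaling gave Sc5d 0.15, Stard4 0.011 and Acly 0.068, and quantile scaling gave Idi1 0.047, Tm7sf2 0.080, Sc5d 0.25 and Stard4 0.042. Leaving out a library gave ranges across 0 for Idi1 (-0.67 to 0.21), Lss (-0.12 to 0.57), Hsd17b7 (-0.52 to 0.22), Sc5d (-0.16 to 0.21) and Elovl5 (-0.012 to 0.18). In sHFD minus ND such ranges were -0.0002 to 0.10 for Srebf1, -0.042 to 0.26 for Srebf2, -0.031 to 0.16 for Scd1, -0.020 to 0.24 for Scd2, -0.099 to 0.27 for Elovl6 and -0.12 to 0.045 for Fads1, which was 0.019 with quantile scaling. In HFD minus sHFD they were -0.25 to 0.18 for Tm7sf2 and -0.069 to 0.084 for Acly, which was 0.15 with median-ratio scaling, and Sc5d was 0.020 with quantile scaling.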
